A study of Mus musculus with 119 samples.

Results

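The mRNA levels of 35 genes of cholesterol synthesis, fatty acid synthesis and the liver X receptor (LXR) pathway were followed in mouse bone marrow-derived macrophages (BMDMs), out of 18098 genes measured by RNA sequencing in 119 libraries. The 35 members were taken as a list of symbols, which was chosen with earlier results of these data known. They comprise 16 enzymes of sterol synthesis, 3 genes of sterol supply, 5 genes of SREBP regulation, 6 genes of fatty acid synthesis and 5 genes of the LXR pathway. All 35 were in the deposited data and passed the filter on low values, which left 11884 genes in the fit of untreated WT cells with the first 2 mutants below and 11971 genes in the fit of all 119 libraries.

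The study stimulated BMDMs with lipopolysaccharide (LPS, 100 ng/ml), a bacterial ligand of TLR4, to follow signalling through the kinase TPL-2 (encoded by Map3k8), ERK1/2 and the transcription factors ELK1 and ELK4. Untreated WT cells of the C57BL/6 strain gave 6 unstimulated libraries, and 6, 6 and 4 after 0.5, 1 and 2 h. Map3k8 D270A/D270A cells (D270A), whose TPL-2 has no kinase activity, gave 6 libraries at each of these times. Elk1-/-Elk4-/- cells (dKO) gave 4 at each time. Nfkb1 SSAA/SSAA cells (SSAA), whose p105 is not degraded upon stimulation, gave 6 libraries each unstimulated, after 0.5 h and after 1 h. WT cells in the MKK1/2 inhibitor PD0325901 (PD, 0.1 µM) gave 3 libraries each after 10, 40 and 70 min without LPS, and 6 each when LPS for 0.5 or 1 h followed 10 min of inhibitor. WT cells in the solvent DMSO for 10 min gave 3 libraries. WT cells in the RSK inhibitor RSKi47 (RSKi, 2 µM) gave 4 libraries with inhibitor alone, and 3, 4 and 4 after 0.5, 1 and 2 h. The mutations were present in every cell of the animal, not only in macrophages, and all cells had been grown in L-cell conditioned medium and kept overnight in medium low in serum. The labels place the untreated WT and D270A libraries in the same experiment, and each of the dKO, SSAA, PD with DMSO, and RSKi series in an experiment of its own. For these last 4 series, a difference from untreated WT cells and a difference between experiments cannot be told apart. The replicates are described as biological ones, but the labels do not say that they came from separate animals, so that p-values measure the spread between these libraries.

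Cells make cholesterol from acetyl-CoA through the mevalonate pathway, and store or export what they do not need. When membrane sterol falls, SCAP carries the transcription factors SREBP-1 and SREBP-2 (genes Srebf1 and Srebf2) from the endoplasmic reticulum to the Golgi, where they are cleaved and released to drive the sterol and fatty acid synthesis genes; INSIG-1 and INSIG-2 hold SCAP back when sterol is plentiful. Oxysterols activate LXRα and LXRβ (Nr1h3 and Nr1h2), which raise the export pumps ABCA1 and ABCG1 and MYLIP, a ubiquitin ligase for lipoprotein receptors. In macrophages both arms are known to respond to TLR ligands.

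The values used below are log2 normalised expression values as deposited, and each difference is a difference of these log2 values, tested with limma and called at a Benjamini-Hochberg adjusted p below 0.05 over all genes tested. Neither the labels nor the methods name the transformation behind the log2 values, which may draw low values together, so that a difference need not equal the log2 of a fold change in mRNA. Sequencing depth of the libraries is unknown from the deposited values, and values of different genes are not adjusted for length and were not compared with each other. Macrophage markers were high in every library (mean log2 value of 6 markers between 13.5 and 13.96), the adipocyte markers Adipoq, Plin1 and Cidec were at the bottom of the scale and Tnf rose from 11.54 to 16.26 at 1 h in WT cells. The mutated Elk1 and Elk4 were lower in the dKO libraries (means at 0 h of 6.36 and 5.71) than in the unstimulated WT libraries (9.14 and 7.72). For the point mutations in Map3k8 and Nfkb1 the mRNA level checks nothing. Neutrophil markers, summed over 6 genes, were higher in the dKO libraries (log2 of the sum 9.64 to 10.61 over all times) than in the untreated WT libraries (5.91 to 7.43), and they were between 6.33 and 8.44 in the SSAA, DMSO, PD and RSKi libraries.

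To show the sequences through which SREBP proteins are known to act on this pathway, promoters from RefSeq (build GRCm38.p6, 250 bases before the start site in the promoter table) were searched on both strands for 3 motifs. A RefSeq promoter was at hand for 28 of the 35 members (37 start sites), but not for Fdps, Fdft1, Sqle, Scd1, Scd2, Stard4 and Abcg1. The sterol regulatory element TCACNCCAC was found in 1 of these 28 members, Hmgcs1, and in 1.05% of all 32841 promoters. Only exact matches to this sequence (N is any base) were counted, so a member without a match may still hold a variant of the element. CCAAT, the NF-Y box that often lies beside such elements, was found in 19 of the 28 and in 33.9% of all promoters. The LXR element, taken as 2 perfect direct repeats spaced by 4 bases, was found in no member and in 0.0152% of all promoters. A member was counted if any of its start sites held the motif, whereas all promoters were counted per start site. The shares therefore differ in unit, and members with several start sites had more chances. These counts are descriptions of letters in these windows. The 5 regions below include Hmgcs1, chosen after the search as the only member searched with an exact match to this sterol element. The others, Msmo1, Lss, Srebf2 and Fasn, hold the NF-Y box and changed with LPS at 2 h in WT cells. Capitals mark TCACNCCAC and CCAAT on either strand (CCAAT reads ATTGG on the opposite strand), and in Fasn 2 opposite boxes overlap.
Hmgcs1 (HMG-CoA synthase), chr13:119690101-119690350, plus strand: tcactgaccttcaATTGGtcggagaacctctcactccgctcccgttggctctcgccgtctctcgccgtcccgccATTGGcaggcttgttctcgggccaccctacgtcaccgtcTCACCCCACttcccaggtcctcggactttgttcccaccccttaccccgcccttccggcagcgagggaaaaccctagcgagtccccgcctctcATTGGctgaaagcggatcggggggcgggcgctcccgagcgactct
Msmo1 (sterol C4 methyl oxidase), chr8:64733579-64733828, minus strand: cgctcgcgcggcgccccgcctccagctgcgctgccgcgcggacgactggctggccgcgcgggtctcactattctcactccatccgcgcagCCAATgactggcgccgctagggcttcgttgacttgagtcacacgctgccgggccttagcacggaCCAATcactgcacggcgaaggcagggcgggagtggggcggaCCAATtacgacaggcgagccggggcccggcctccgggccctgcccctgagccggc
Lss (lanosterol synthase), chr10:76531355-76531604, plus strand: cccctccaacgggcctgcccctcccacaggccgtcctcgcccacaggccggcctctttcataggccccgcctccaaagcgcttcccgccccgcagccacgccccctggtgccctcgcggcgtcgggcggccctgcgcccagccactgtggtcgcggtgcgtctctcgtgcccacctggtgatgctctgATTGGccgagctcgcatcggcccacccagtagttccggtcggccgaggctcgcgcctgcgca
Srebf2 (SREBP-2), chr15:82147019-82147268, plus strand: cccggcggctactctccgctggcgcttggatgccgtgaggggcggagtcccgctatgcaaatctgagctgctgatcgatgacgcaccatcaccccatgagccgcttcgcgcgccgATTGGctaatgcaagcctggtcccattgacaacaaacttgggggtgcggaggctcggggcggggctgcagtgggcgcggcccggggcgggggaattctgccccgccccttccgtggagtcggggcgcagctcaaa
Fasn (fatty acid synthase), chr11:120824548-120824797, minus strand: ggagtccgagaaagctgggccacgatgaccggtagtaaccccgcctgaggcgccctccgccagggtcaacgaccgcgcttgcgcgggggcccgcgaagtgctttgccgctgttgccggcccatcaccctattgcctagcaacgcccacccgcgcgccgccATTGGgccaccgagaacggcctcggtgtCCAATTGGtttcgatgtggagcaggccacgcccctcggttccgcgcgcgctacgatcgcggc
The sterol element of Hmgcs1 spans bases 137 to 129 before the start, with NF-Y boxes at 237 to 233 and 176 to 172 on its far side and 45 to 41 on its near side. For Fasn the whole window, and for Lss the bases nearest the start, lie inside the interval that the RefSeq gene table gives for the gene, which begins further upstream than the start site used here. Msmo1 holds 3 NF-Y boxes, at 160 to 156, 96 to 92 and 55 to 51 bases before the start.

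The first question was how the pathway responded to LPS in untreated WT cells. The change came in steps: at 0.5 h 2 members rose, at 1 h the SREBP regulators rose, and at 2 h most synthesis enzymes had fallen while the regulators and several LXR genes were higher, the rises depending on the scaling as given below. At 0.5 h 2 of 35 members were called higher and 0 lower, against 7.82% and 3.81% of all genes. Insig1 spanned 11.18 to 11.54 (median 11.46) without LPS and 11.49 to 12.18 (median 11.93) at 0.5 h, a log2 difference of 0.49 (SE 0.08, adjusted p = 3.2e-06). The ranges overlapped slightly. Mylip, whose ranges did not overlap, with a difference of 0.21 (SE 0.07, adjusted p = 0.038), did not pass without the WT libraries numbered 4, 6, 7, 8 or 9, each left out in turn (1 member called), nor with another scaling.

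At 1 h 10 members were called higher and 5 lower, against 23.8% and 23% of all genes, shares not far from those of the members. Insig1 reached 11.88 to 12.28 (median 12.21), above every unstimulated library, with a difference of 0.76 (SE 0.08, adjusted p = 2.6e-12). Mylip reached 11.01 to 11.41 (median 11.22) from 10.61 to 10.78 (median 10.66), a difference of 0.53 (SE 0.07, adjusted p = 2.4e-09). For both genes the range at 1 h did not overlap the unstimulated one. Abcg1, the cholesterol exporter to lipoproteins, fell by 0.48 (SE 0.07, adjusted p = 1.7e-07), from 12.55 to 12.94 (median 12.78) to 11.98 to 12.53 (median 12.30). All WT libraries at 1 h lay below the lowest unstimulated one. Hmgcs1, the entry enzyme of the mevalonate pathway, was the only 1 of the 16 sterol enzymes called higher (0.31, SE 0.08, adjusted p = 0.0012; 0 of 16 under quantile normalization), with 10.97 to 11.31 (median 11.25) before and 11.23 to 11.62 (median 11.54) after LPS. Stard4, a cytosolic sterol carrier, rose by 0.27 (SE 0.08). Scd2, Lss and Dhcr7 fell by 0.28, 0.22 and 0.19, but each of these calls was lost without WT libraries 4 or 9, that of Lss also without WT libraries 7 and that of Scd2 without WT libraries 6. All 5 SREBP regulators were called higher, by 0.10 for Insig2 to 0.76 for Insig1, but with quantile normalization in place of the deposited scaling 1 of the 5 was, and the split of all members was 3 higher and 8 lower. A term for the 2 sets of replicate numbers, 4 to 6 and 7 to 9, kept all calls at 0.5 and 1 h and added Hmgcs1 at 0.5 h and Idi1 and Nr1h3 at 1 h, all higher, whereas libraries 7 to 9 alone gave 7 calls at 1 h.

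At 2 h 17 members were called lower and 8 higher, against 36.8% and 34.7% of all genes. The median difference of the members was -0.21, beside -0.02 over all genes tested. Of the 16 sterol enzymes 10 fell and 0 rose (median -0.29), as did 2 of 3 sterol supply genes and 4 of 6 fatty acid genes, whereas all 5 SREBP regulators and 3 of 5 LXR genes were called higher. Under quantile normalization the split was 3 higher and 21 lower; 13 enzymes were then lower, and of the SREBP regulators 2 were higher and 1 lower and of the LXR genes 1 was higher and 1 lower, so that the fall of the enzymes did not depend on the scaling and the rise of most regulators did. Only Scd2 passed a difference of 1 as well, beside 11% of all genes. Of the WT libraries at 2 h, 3 belong to 1 set of replicate numbers (4 to 6) and 1 to the other (7 to 9); with a term for the set the calls were 10 higher and 16 lower, with Hmgcs1 (0.18, adjusted p = 0.027) and Abca1 (0.27, adjusted p = 0.012) gained and Nsdhl lost.

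Scd2, a desaturase that makes monounsaturated fatty acids, fell the most. Its value was 12.63 to 13.06 (median 12.87) without LPS and 11.62, 11.79, 11.39 and 11.79 at 2 h, a difference of -1.21 (SE 0.12, adjusted p = 7.8e-13). All 4 libraries at 2 h were below all unstimulated ones by more than the spread within either group. Msmo1 went from 11.23 to 11.56 (median 11.52) to 10.83, 10.71, 10.43 and 11.02, a difference of -0.70 (SE 0.10, adjusted p = 4.1e-09). Lss went from 8.996 to 9.34 (median 9.27) to 8.60, 8.68, 8.19 and 8.68, a difference of -0.69 (SE 0.10, adjusted p = 1.7e-08). Dhcr7, the last enzyme of cholesterol synthesis, went from 9.60 to 9.87 (median 9.67) to 9.13, 9.28, 8.86 and 9.06 (difference -0.62, SE 0.07, adjusted p = 1.0e-10). None of these ranges overlapped. Of the other mevalonate pathway enzymes, Mvd, Pmvk and Mvk also fell, by 0.57, 0.41 and 0.27. Hmgcs1 was not called without the term for the set, at 11.36, 11.33, 11.04 and 11.56 (difference 0.13, adjusted p = 0.20), and Idi1, the isomerase of isoprenoid units, differed by -0.04 (adjusted p = 0.80).

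Scap rose the most. It spanned 10.00 to 10.05 (median 10.01) in the 6 unstimulated libraries and was at 10.85, 11.03, 10.87 and 10.73 at 2 h, a difference of 0.85 (SE 0.05, adjusted p = 8.2e-24). The gap between these ranges was far wider than either range. Nr1h3 (LXRα) went from 8.30 to 8.79 (median 8.58) to 9.35, 9.32, 9.38 and 9.20 (difference 0.76, SE 0.09, adjusted p = 6.9e-11), also without overlap. Srebf2 was higher by 0.38 (SE 0.07, adjusted p = 2.6e-06) as deposited but by -0.04 under quantile normalization, and Nr1h2 (LXRβ) by 0.31 as deposited and 0.05 (not called) under quantile normalization. Insig1 had come back to 11.57, 11.60, 11.48 and 11.77, and Mylip to 10.99, 10.92, 10.97 and 10.98, from their peaks at 1 h, though both were still called above the unstimulated level. Abcg1 stayed low, at 12.35, 12.42, 12.49 and 12.36. Of 20 further genes of the pathway fixed as a list, 0 were called at 0.5 h, 2 rose and 3 fell at 1 h, and 4 rose and 10 fell at 2 h; Ch25h, which makes 25-hydroxycholesterol, rose by 1.89 at 1 h and 2.69 at 2 h, and Arl4c, an LXR target, fell by 1.26 at 2 h.

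**Figure D1:**
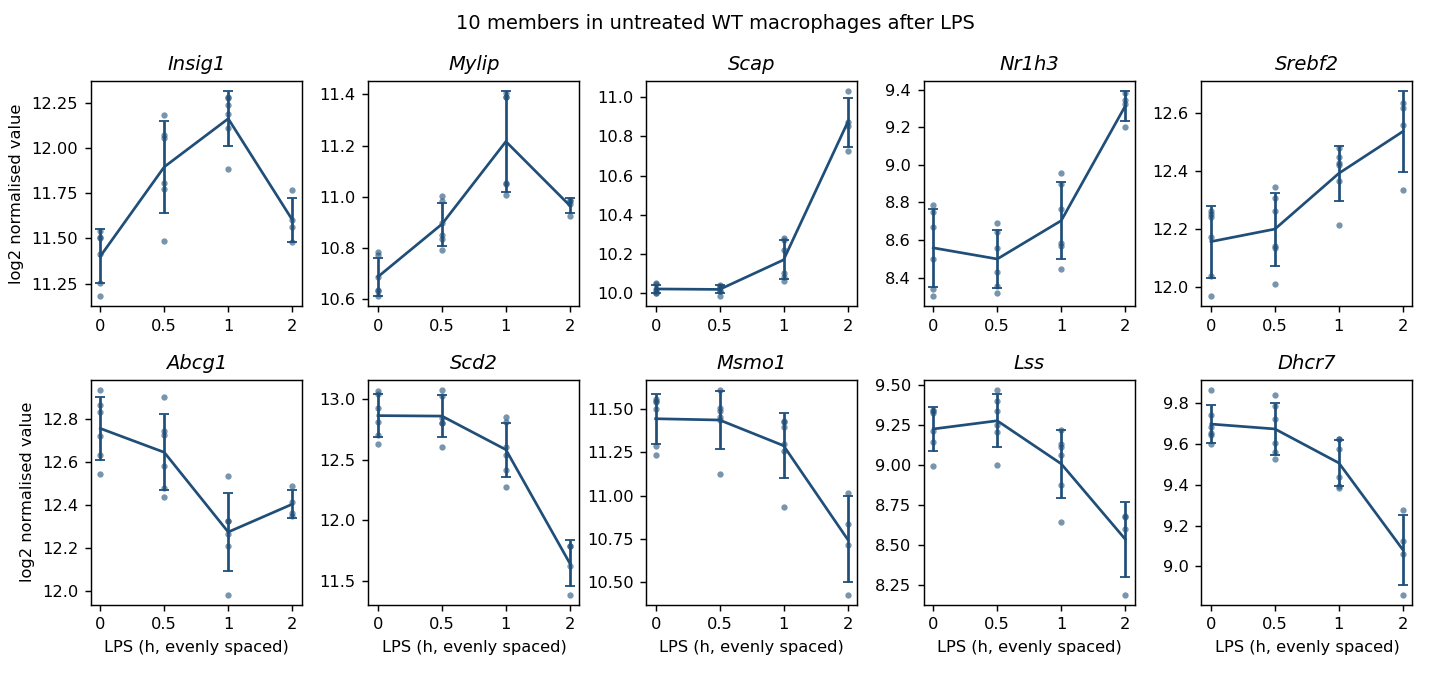
Log2 normalised values (y axis) of 10 members in untreated WT macrophages by hours of LPS (x axis); each point is a library, lines join the means and bars are SDs. Insig1 and Mylip peaked at 1 h, Scap and Nr1h3 were highest at 2 h, and Scd2, Msmo1, Lss and Dhcr7 were lowest at 2 h.

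The second question was what loss of TPL-2 kinase activity changed, in D270A cells against WT cells of the same experiment. Without LPS 0 members were called in either direction (1 at an unadjusted p below 0.05), against 0.606% of all genes higher and 0.833% lower, and the differences of the 35 members ran from -0.17 to 0.16. At 0.5 h 0 were called higher and 1 lower, Insig1, against 0.48% and 0.892% of all genes. Insig1 was 11.42 to 11.76 (median 11.58) in D270A cells beside 11.49 to 12.18 (median 11.93) in WT cells, a difference of -0.31 (SE 0.08, adjusted p = 0.019). These ranges overlapped, and the call was lost without WT libraries 7, 8 or 9 or D270A libraries 1, 2 or 4, each left out in turn; without WT libraries 6 there were 2 calls. At 1 h 1 member was higher, Mylip, and 1 lower, Insig1, against 5.14% and 4.64% of all genes. Mylip was 11.32 to 11.76 (median 11.54) in D270A cells and 11.01 to 11.41 in WT cells (difference 0.33, SE 0.07, adjusted p = 4.4e-04), and Insig1 differed by -0.26 (SE 0.08, adjusted p = 0.025); both ranges overlapped. Under quantile normalization 2 were higher, Mylip and Abcg1, and 0 lower. Leaving out WT libraries 6 gave 6 calls at 1 h, and leaving out WT libraries 5 or D270A libraries 1, 2, 3 or 4 gave 1. With only the groups compared in the fit, 0 members were called at 0.5 h and 0 at 1 h.

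At 2 h 3 members were higher in D270A cells, Mylip, Abcg1 and Stard4, and 1 was lower, Scap. The counts were few beside 14.6% of all genes higher and 13.1% lower. Mylip was 10.99, 10.92, 10.97 and 10.98 in WT cells and 11.50 to 11.74 (median 11.60) in D270A cells, a difference of 0.63 (SE 0.08, adjusted p = 2.5e-09). The ranges were apart. Abcg1 was 12.35, 12.42, 12.49 and 12.36 in WT cells and 12.77 to 13.18 (median 12.95) in D270A cells (difference 0.56, SE 0.08, adjusted p = 3.7e-07). D270A libraries 1 to 3 were near 13.1 and libraries 4 to 6 near 12.8, all above the 4 WT libraries. Stard4 was 9.41, 9.33, 8.83 and 9.61 in WT cells and 9.57 to 9.92 (median 9.77) in D270A cells (difference 0.48, SE 0.09, adjusted p = 7.8e-05), with 1 WT library inside the D270A range. Scap was 10.85, 11.03, 10.87 and 10.73 in WT cells and 10.38 to 10.61 (median 10.53) in D270A cells (difference -0.37, SE 0.05, adjusted p = 5.2e-09). The ranges of Scap did not overlap. None of the 16 sterol enzymes was called in this fit, with differences from -0.19 to 0.13, but that changed once the replicate sets described next were taken into account. Msmo1 and Lss fell with LPS in D270A cells too.

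The WT libraries numbered 4 to 6 and the D270A libraries numbered 1 to 3 differed as a set from the rest, so each set was also taken alone. The sample titles give only replicate numbers, so joining these WT and D270A libraries into a set is an assumption made from the values. At 2 h the difference was 0.56 and 0.69 for Mylip, 0.73 and 0.42 for Abcg1, 0.56 and 0.19 for Stard4 and -0.38 and -0.26 for Scap, in the first and second set. All of these passed in the first set. The second set has 1 WT library at 2 h, so its differences are given as sizes only. The difference of Insig1 at 0.5 h was -0.16 (adjusted p = 0.40) in the first set and -0.46 (adjusted p = 3.7e-04) in the second. The WT libraries at 2 h were 3 of the first set and 1 of the second, against 3 and 3 in D270A cells, and with a term for the set 11 members were called at 2 h, 4 higher and 7 lower, against 17.4% and 15.1% of all genes. Among the enzymes Hmgcs1 (-0.24, SE 0.07, adjusted p = 0.013) and Tm7sf2, a sterol reductase (-0.23, SE 0.08, adjusted p = 0.020), were then lower in D270A cells and Ebp, a sterol isomerase, higher by 0.07. Elovl6, Fasn, Nr1h3 and Srebf2 were also lower, by 0.32, 0.27, 0.16 and 0.15. Mean values of Hmgcs1 at 2 h were 11.24 in WT and 10.99 in D270A cells of the first set, and 11.56 and 11.28 in the second. With each replicate number as a block, 7 members were called at 2 h, 3 higher and 4 lower, the lower ones being Scap, Elovl6, Hmgcs1 and Tm7sf2. At 1 h the term for the set gave 5 calls, 2 higher and 3 lower, against 7.52% and 6.72% of all genes, with Abcg1 higher and Hmgcs1 and Nr1h2 lower beside Mylip and Insig1. Without WT libraries 6 there were 8 calls at 2 h.

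The test of the difference in response, LPS at 2 h in D270A minus WT cells, called the same 4 genes, 3 higher and 1 lower, against 6.94% and 8.6% of all genes. Mylip rose by 0.97 in D270A cells and by 0.28 in WT cells, a difference in response of 0.69 (SE 0.10, adjusted p = 1.1e-06). Abcg1 fell by 0.35 in WT cells and was not called in D270A cells, with a difference of 0.11 (difference in response 0.46, SE 0.11, adjusted p = 0.0019). Stard4 fell by 0.37 in WT cells and was not called in D270A cells either, with a difference of 0.05 (difference in response 0.42, SE 0.13, adjusted p = 0.017). Scap rose by 0.51 in D270A cells and by 0.85 in WT cells (difference in response -0.34, SE 0.06, adjusted p = 3.4e-05). The number of calls stayed at 4 whichever library number was left out, and was 7 (4 higher, 3 lower) with the replicate block and 1, Mylip, in the second set alone. Within D270A cells LPS at 2 h called 7 members higher and 15 lower, against 34.9% and 34.6% of all genes (4 higher and 20 lower under quantile normalization). Of the neutrophil markers only S100a8 was called, higher by 0.42, and its part was not tested. Of the enzymes 11 fell and 0 rose, and Scd2 fell by 1.13 (SE 0.11). Among the 20 further genes of the pathway Ch25h was lower in D270A than WT cells at 2 h by 0.71, Npc1, a lysosomal cholesterol transporter, was lower at every time by 0.28 to 0.41, and the response of Arl4c differed by 0.44.

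**Figure D2:**
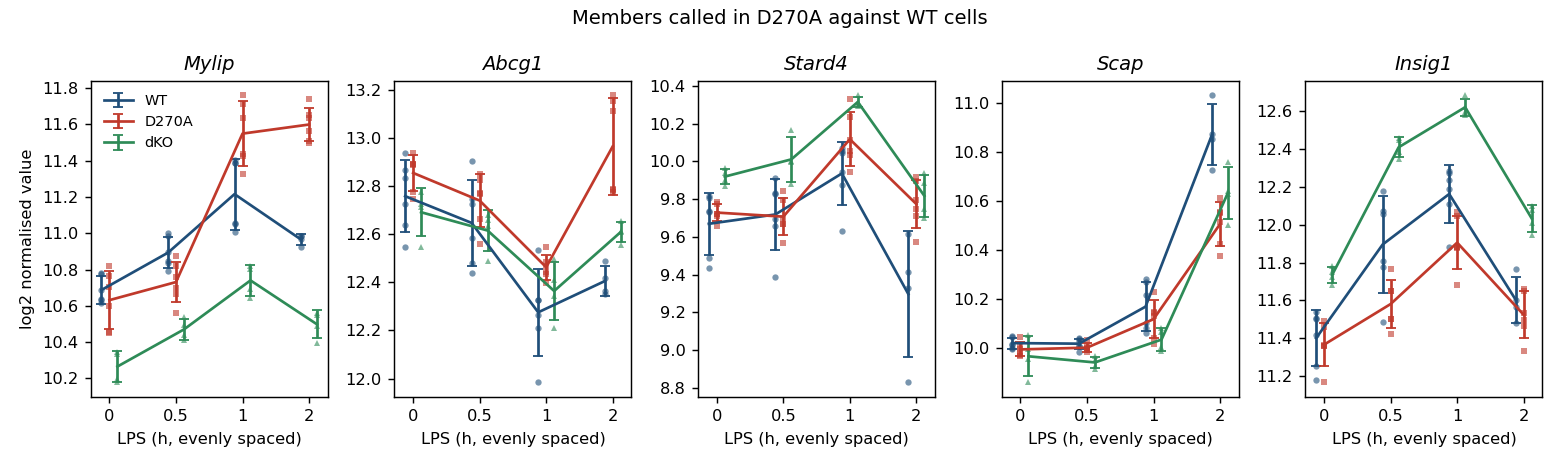
Log2 normalised values (y axis) of the 5 members called in D270A against WT cells, by hours of LPS (x axis) in WT, D270A and dKO macrophages; points are libraries, lines join means and bars are SDs. At 2 h the D270A libraries lay above the WT libraries for Mylip and Abcg1 and below them for Scap; the dKO libraries came from another experiment.

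The third question was whether cells without ELK1 and ELK4 differed. In dKO cells the sterol enzymes were higher than in untreated WT cells before LPS, and stayed so. Without LPS 20 members were called higher and 3 lower, against 27.2% and 24.6% of all genes; 15 of 16 enzymes were among the higher ones (median difference 0.49), Ebp being the exception. At 0.5 h there were 18 higher and 3 lower, against 22.4% and 22%; at 1 h 18 higher and 5 lower, against 27.2% and 26.2%; and at 2 h 21 higher and 6 lower, against 27.7% and 23.1%. Hmgcs1 was 12.14, 11.98, 12.004 and 12.11 in unstimulated dKO cells and 10.97 to 11.31 in WT cells (difference 0.87, SE 0.09, adjusted p = 4.8e-11). No dKO library came near the WT range. Idi1 at 2 h was 11.86, 11.70, 11.84 and 11.73 in dKO cells and 10.51, 10.38, 9.97 and 10.94 in WT cells, a difference of 1.33 (SE 0.16, adjusted p = 7.4e-10). It was the 1 member past a difference of 1 at 2 h, beside 2.09% of all genes. Abca1, the exporter of cholesterol to apolipoproteins, was lower at every time, at 12.94, 13.10, 13.00 and 12.83 without LPS beside 13.37 to 13.69 in WT cells (difference -0.52, SE 0.11, adjusted p = 5.7e-05), and Mylip was lower by 0.42. Experiment and genotype cannot be told apart here, and the neutrophil markers moved with the same libraries: 3 of the 6 passed the filter on low values, and all 3 were called higher in unstimulated dKO cells, by 3.95 for Ltf, 3.78 for S100a9 and 2.97 for S100a8. Their part was not tested.

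Set against DMSO-treated WT cells of the inhibitor experiment, a comparison chosen after seeing the data, the unstimulated dKO libraries had 0 members higher and 28 lower (median difference -0.39), against 19.7% and 18.4% of all genes. The members called higher against untreated WT cells all had negative differences here, so that their sign turned with the choice of WT libraries. Of the 3 called lower against untreated WT cells, Nr1h2 was lower here too, by 0.19 (adjusted p = 0.0026), and Abca1 and Mylip were not called, with differences of -0.06 and -0.05.

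Within the dKO libraries LPS at 2 h called 7 members higher and 10 lower, against 35.2% and 32% of all genes, and 11 in all without dKO libraries 2; under quantile normalization 2 were higher and 17 lower. Scd2 fell by 0.90 (SE 0.14), Nr1h3 rose by 0.77 and Scap by 0.67. The response differed from that of WT cells for 2 members upward and 1 downward, against 8.17% and 8.76% of all genes. Msmo1 fell less in dKO cells (difference in response 0.46, SE 0.14, adjusted p = 0.017), from 11.92, 11.88, 11.83 and 11.91 to 11.70, 11.57, 11.74 and 11.58. Pmvk, phosphomevalonate kinase, differed by 0.35 (adjusted p = 0.025) and Insig2 by -0.33 (adjusted p = 1.7e-05). Msmo1 was lost without dKO libraries 3, and Pmvk without WT libraries 4 or 6 or dKO libraries 1, 3 or 4. The count was 5 without WT libraries 7 or 9, 1 without dKO libraries 3 and 1 under quantile normalization, which kept neither upward call.

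The fourth question was whether blocking p105 degradation or MKK1/2 changed the pathway. The sterol and fatty acid genes were far higher in SSAA cells than in untreated WT cells, and DMSO-treated WT cells, which carry no mutation and met no LPS or inhibitor, were higher as well. In SSAA cells without LPS 28 members were called higher and 2 lower, against 16.9% and 15.1% of all genes, with a median difference of 0.86 beside 0.00 over all genes. All 16 enzymes, all 3 supply genes and all 6 fatty acid genes were higher, and 13 members passed a difference of 1, which 61 genes (0.51%) did among all tested. Mvd, mevalonate diphosphate decarboxylase, was 9.90 to 10.38 (median 10.05) in SSAA cells and 8.39 to 8.79 (median 8.50) in WT cells, a difference of 1.56 (SE 0.09, adjusted p = 2.7e-29). Lss was 10.51 to 11.03 (median 10.69) and Hmgcs1 12.43 to 12.81 (median 12.62), differences of 1.49 and 1.43. Fdft1, squalene synthase, was 10.46 to 10.82 (median 10.66) beside 8.93 to 9.41 (median 9.26), a difference of 1.42 (SE 0.09). None of these ranges overlapped. Nr1h3 was lower by 0.30, and Abca1 by 0.27 (adjusted p = 0.0498), a call lost without WT libraries 4, 7, 8 or 9 or SSAA libraries 4, 5 or 6. At 0.5 h 29 members were higher and 1 lower, against 16.7% and 15.6%, and at 1 h 28 were higher and 2 lower, against 20.5% and 21.9%, with 15 past a difference of 1 beside 140 genes (1.17%). The neutrophil markers S100a8 and S100a9 were higher at 1 h, by 0.54 and 0.71, while none of the 3 that passed the filter was called at 0 or 0.5 h, and their part was not tested. Among the 20 further genes 14 were higher and 2 lower without LPS, with Acss2, which makes acetyl-CoA from acetate, higher by 1.19 and Ch25h lower by 0.79.

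In DMSO-treated WT cells 28 members were higher than in untreated WT cells and 2 lower, against 12.5% and 11.1% of all genes, with a median difference of 0.71. All 16 enzymes were again higher, and 11 members passed a difference of 1, which 46 genes (0.384%) did. Scd1, a stearoyl-CoA desaturase, was 11.60, 11.67 and 11.70 in DMSO and 9.88 to 10.67 (median 10.14) in untreated cells, a difference of 1.49 (SE 0.24, adjusted p = 1.3e-06). Hmgcs1 was 12.60, 12.67 and 12.73 (difference 1.47, SE 0.10), inside the SSAA range. Fdps, which makes farnesyl diphosphate, was 12.07, 12.12 and 12.10 beside 10.49 to 11.03 (difference 1.30, SE 0.14), and Acat2, which joins 2 acetyl-CoA units, differed by 1.27. Abca1 and Mylip were lower by 0.46 and 0.37, the former not called without DMSO library 1. The same 3 neutrophil markers were higher in the DMSO libraries, by 0.84 to 1.56, and their part was not tested. Both groups here are WT cells, so the difference lies between experiments or with 10 min of DMSO, which cannot be told apart. In a comparison chosen after seeing these values, the unstimulated SSAA libraries differed from the DMSO libraries in 4 members, all higher (Mylip 0.50, Mvk 0.42, Mvd 0.32 and Aacs 0.32), and 0 lower, against 9.32% and 8.75% of all genes, with a median difference of 0.08.

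PD-treated cells with LPS gave the same picture against untreated WT cells with LPS. At 0.5 h 28 members were higher and 3 lower, against 14.5% and 15% of all genes, and at 1 h 29 were higher and 2 lower, against 16.4% and 19.3%; 9 passed a difference of 1 at 1 h beside 88 genes (0.735%). Scd1 differed by 1.54 (SE 0.20, adjusted p = 3.0e-10) and Fdps by 1.23 at 1 h. The 3 neutrophil markers that passed the filter were higher as well at both times, at 1 h by 1.74 for Ltf, 1.61 for S100a9 and 1.09 for S100a8 and at 0.5 h by 1.21 to 1.66, and their part was not tested. These libraries belong to the same experiment as the DMSO libraries, and PD at 10 min against DMSO at 10 min called 0 members and 0 genes with limma (0% higher and 0% lower; at an unadjusted p below 0.05, 0 members and 245 genes). The differences of the 35 members ran from -0.13 to 0.15, with Scd1 at 11.60, 11.63 and 11.66 and Hmgcs1 at 12.67, 12.71 and 12.72 in PD.

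After 70 min in PD without LPS 1 member was higher than after 10 min, Mylip, and 1 lower, Hmgcs1, against 2.62% and 3.47% of all genes. Mylip was 10.33, 10.28 and 10.36 at 10 min and 10.81, 10.81 and 10.77 at 70 min (difference 0.48, SE 0.09, adjusted p = 1.3e-04). Hmgcs1 went from 12.67, 12.71 and 12.72 to 12.23, 12.29 and 12.21 (difference -0.46, SE 0.11, adjusted p = 0.0053). Neither pair of ranges overlapped, but without PD libraries 1, 2 or 3, each left out in turn, Hmgcs1 was not called and 1 member was left, whereas 11 members were called when only these 6 libraries were fitted. Of the neutrophil markers Ltf and S100a8 were higher at 70 min too, by 0.98 and 0.80, and their part was not tested. Time in PD and time since DMSO or medium was added cannot be told apart, as no DMSO libraries of 70 min were analysed here.

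**Figure D3:**
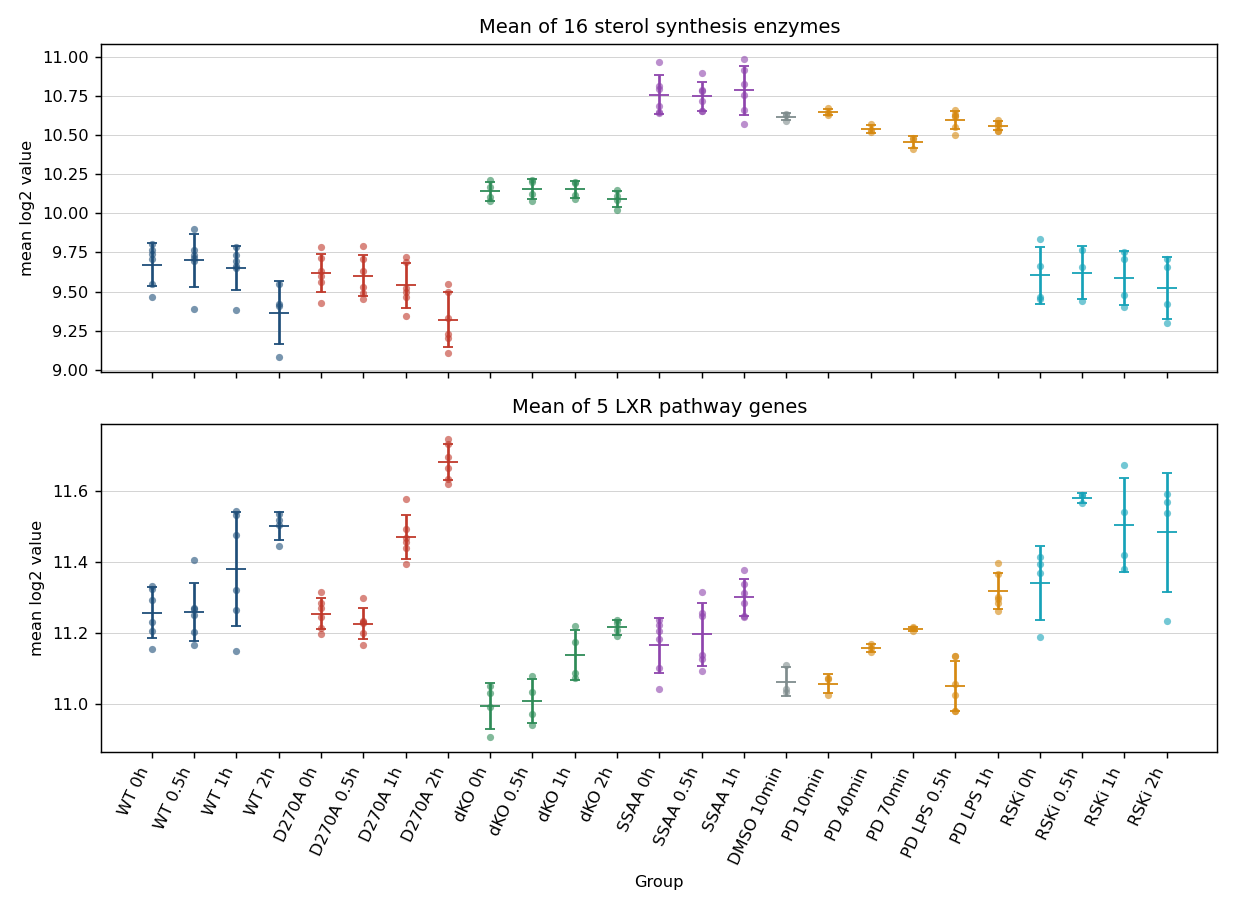
Mean log2 value (y axis) over the 16 sterol synthesis enzymes (top) and the 5 LXR pathway genes (bottom) in each of the 119 libraries, by group (x axis); points are libraries, horizontal marks are group means and bars are SDs. The enzyme mean was 9.08 to 9.90 in untreated WT libraries, 10.02 to 10.22 in dKO libraries and 10.41 to 10.99 in SSAA, DMSO and PD libraries.

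LPS moved Insig1, Mylip and Abcg1 in SSAA and PD cells in the same direction as in WT cells. In SSAA cells LPS at 1 h called 10 members higher and 5 lower, against 22.5% and 21.9% of all genes (4 and 8 under quantile normalization). Of the neutrophil markers only S100a9 was called, higher by 0.69, and its part was not tested. Insig1 rose from 12.21 to 12.51 (median 12.37) to 13.29 to 13.78 (median 13.40), a difference of 1.09 (SE 0.09, adjusted p = 4.3e-21), Mylip rose by 0.75 (SE 0.07) and Abcg1 fell by 0.65 (SE 0.09). In PD cells LPS at 1 h against PD at 70 min called 7 higher and 2 lower, against 21.9% and 21.7% of all genes (5 and 7 under quantile normalization, and 20 in all with only the groups compared in the fit). Insig1 rose from 11.93, 11.93 and 11.85 to 12.98 to 13.05 (median 13.01), a difference of 1.11 (SE 0.11, adjusted p = 1.5e-16), Mylip rose by 0.81 (SE 0.08) and Abcg1 fell by 0.72 (SE 0.11). The ranges of Insig1 were apart in both. Against the WT response at 1 h, the SSAA response called 0 members (1.77% of all genes higher and 4.3% lower with limma; 3 members at an unadjusted p below 0.05). With the replicate block it called 2, Insig1, larger by 0.33 (adjusted p = 0.0022), and Mylip, larger by 0.23 (adjusted p = 0.042). The PD response differed for 1 member, Insig2, upward by 0.17 (SE 0.05, adjusted p = 0.027), and 0 downward, against 1.1% and 2.48% of all genes; it was lost without WT libraries 4 or 8 or PD libraries 1 or 2.

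The last question was what RSKi47 changed. Against untreated WT cells the members moved both ways. Without LPS 4 were higher and 8 lower, against 26.8% and 26.3% of all genes; at 0.5 h 7 and 6, against 23.7% and 24.5%; at 1 h 4 and 10, against 26.5% and 26.3%; and at 2 h 6 and 4, against 27.5% and 24.6% (4 and 5 with libraries centred on their median). Scd1 was 10.12, 9.22, 9.67 and 8.44 in RSKi cells without LPS beside 9.88 to 10.67 in WT cells, a difference of -0.80 (SE 0.22, adjusted p = 0.0013). The RSKi libraries were more spread than the WT ones, and the highest lay inside the WT range. Elovl6, a fatty acid elongase, differed by -0.38 (SE 0.12), Scap by 0.37 (SE 0.05) and Abcg1 by 0.32 (SE 0.10). Leaving out RSKi libraries 4 gave 6 calls in place of 12 without LPS, with Elovl6 lost, and leaving out RSKi libraries 3 gave 7 in place of 13 at 0.5 h. With only the groups compared in the fit, 4, 7, 8 and 3 members were called at 0, 0.5, 1 and 2 h. The fibroblast markers were also high in the RSKi libraries without LPS (log2 of the sum over 5 genes 5.38 to 9.42, beside 4.05 to 4.43 in WT cells), with Col1a1 and Col1a2, 2 of the 5, called higher by 3.06 and 2.30. Of the 3 neutrophil markers that passed the filter, Ltf and S100a8 were higher without LPS, by 1.201 and 0.90, and at 0.5 h, by 0.74 and 0.67, and all 3 were higher at 1 h, by 0.91 to 1.41, and at 2 h, by 1.1015 to 1.54. The part of these markers in the differences was not tested.

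LPS at 2 h called 7 members higher and 8 lower in RSKi cells, against 32.5% and 29.7% of all genes (3 and 14 under quantile normalization, and 7 in all with only the groups compared in the fit). Scd2 fell by 0.86 (SE 0.18), Lss by 0.56 and Abcg1 by 0.54, and Nr1h3 rose by 0.58. The response differed from that of WT cells for 3 members upward and 1 downward, against 10.6% and 10.4% of all genes. Scap rose less, from 10.35, 10.35, 10.31 and 10.56 to 10.72, 10.73, 10.73 and 10.58 (difference in response -0.55, SE 0.07, adjusted p = 1.3e-10). The lowest library at 2 h and the highest without LPS carry the same number, 4. Msmo1 fell less, from 11.42, 11.03, 11.30 and 11.05 to 11.05, 10.70, 11.17 and 10.96 (difference in response 0.47, SE 0.13, adjusted p = 0.0046), Mvd by 0.39 (adjusted p = 0.037) and Dhcr7 by 0.28 (adjusted p = 0.032). Dhcr7 was also lost without RSKi libraries 2, and Mvd without WT libraries 8. The count was 2 without WT libraries 4 or 6 or RSKi libraries 3 or 4, 2 with libraries centred on their median, 1 with only the groups compared in the fit and 7 (6 upward) with the replicate block.

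**Figure D4:**
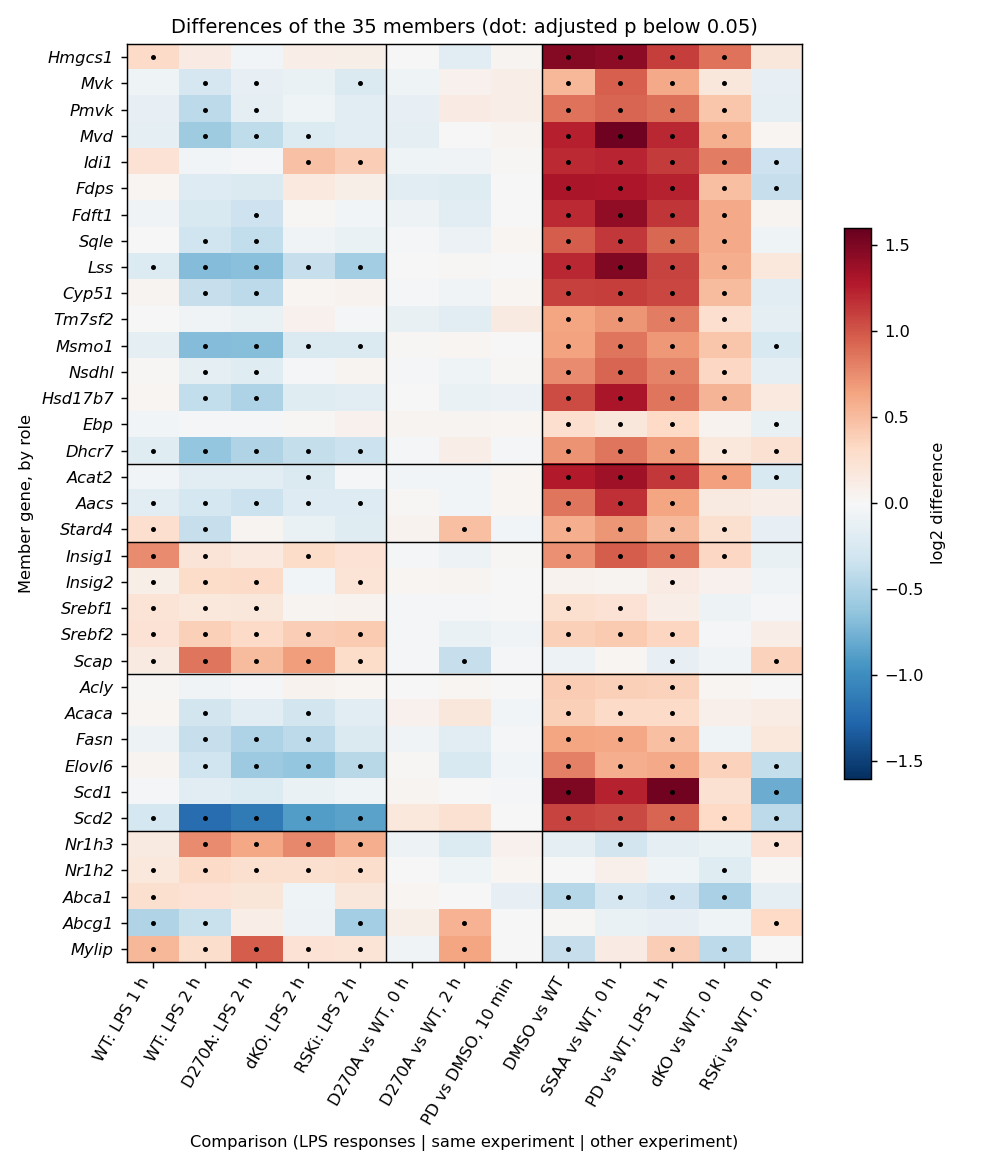
Log2 differences (colour) of the 35 members (rows, grouped by role) in 13 comparisons (columns); black dots mark an adjusted p below 0.05. The first 5 columns are responses to LPS, the next 3 compare libraries of the same experiment, and the last 5 compare libraries of different experiments, where all 16 sterol enzymes were higher in DMSO, SSAA and PD libraries.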

How the data were processed

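RNA of BMDMs was sequenced by the authors as strand-specific single-end reads, mapped with STAR and counted per gene with RSEM against mm10 RefSeq genes; the submitters' processing notes list RSEM 1.2.29, STAR 2.5.1b and DESeq2 1.10.1. The authors deposited 1 table of log2 normalised values for 18098 genes and 119 libraries; counts and depths were not used here, and no interval that needs them is given. One value of 57.7 was set missing (limit 25), and 0 sample columns were unmapped. No pair of libraries held identical values.

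Values were compared with limma 3.58.1 (R 4.3.3), with a mean per group and no trend. WT, D270A and dKO comparisons used those 62 libraries and genes at a linear value of 10 or more in 4 libraries; others used all 119 libraries and 3 libraries at that level. Calls needed a Benjamini-Hochberg adjusted p below 0.05. The method was tested on simulated data. Members, gene lists and tests were chosen with earlier results of these data known. In each comparison, values are given for up to 4 called members with the largest difference per direction, and others by counts. Same-numbered libraries deviated together in WT (correlations 0.16 to 0.79), SSAA (0.14 to 0.67), D270A (0.07 to 0.76) and RSKi (0.07 to 0.70) cells, whereas in dKO (-0.22 to 0.59) and PD (-0.27 to 0.30) cells they did not throughout. Numbers were therefore taken to pair libraries of the WT and SSAA series, and of D270A and RSKi cells at 0 and 2 h, from the data and not from the labels. Alternatives covered the filter, scaling, trend, a replicate block, the libraries fitted, a size of 1, the 2 replicate sets and each library number left out.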

Additional observations from a re-analysis of the deposited data

Results flagged for a closer look

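In 65 pairs of a described member and a group of 4 to 6 libraries, 4 held a library far from the others by Dixon's criterion, which chance meets in about 1 in 20. Hmgcs1 was 11.24 in WT library 6 at 1 h, below the other 5. Lss was 8.19 in WT library 6 at 2 h, below the other 3. Scap was 10.56 in RSKi library 4 without LPS, above the other 3, and 10.58 in RSKi library 4 at 2 h, below the other 3.

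Several members responded to LPS differently from WT cells by the test of the difference itself. In D270A cells at 2 h the differences in response were 0.69 for Mylip, 0.46 for Abcg1, 0.42 for Stard4 and -0.34 for Scap. In dKO cells at 2 h they were 0.46 for Msmo1, 0.35 for Pmvk and -0.33 for Insig2. In PD cells at 1 h the difference was 0.17 for Insig2. In RSKi cells at 2 h they were 0.47 for Msmo1, 0.39 for Mvd, 0.28 for Dhcr7 and -0.55 for Scap. Only the D270A libraries share an experiment with the WT libraries.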

How the results depend on the processing

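The deposited values carry no depth, so that no limit set by depth can be given. All 33 counts of members called stayed within 1.5 times with an intensity trend or a higher filter. Requiring a difference of 1 left 13, 13 and 15 members in SSAA cells at 0, 0.5 and 1 h, 9 and 9 in PD cells at 0.5 and 1 h, 11 in DMSO cells, 1 each for dKO against WT at 1 and 2 h and for LPS in WT and D270A cells at 2 h and SSAA and PD cells at 1 h, and 0 in the others. With the fit on only the groups compared, the counts were 0 and 0 for D270A against WT at 0.5 and 1 h, 4, 7, 8 and 3 for RSKi at 0, 0.5, 1 and 2 h, 11 for PD at 70 against 10 min, 20 for LPS in PD cells, 7 for LPS in RSKi cells and 1 for the RSKi difference in response. With all genes kept, centred libraries or quantile normalization, LPS in WT cells at 0.5 h called 1; centring gave 2 for the RSKi difference in response and quantile normalization 1 for the dKO one. Quantile normalization reversed Srebf2 at 2 h of LPS, to -0.036 in WT and -0.015 in dKO cells; the cause was not tested. With the replicate block, which removed no call among the members, the counts were 7 for D270A against WT at 2 h, 7, 12, 2, 5 and 7 for the D270A, dKO, SSAA, PD and RSKi differences in response and 6 for PD at 70 min; in PD and dKO cells libraries share only a number. It moved no other count by over 1.5 times. In the first replicate set D270A against WT called 0 at 0.5 h and 7 at 2 h. In the second, LPS in WT cells at 1 h called 7 and D270A against WT at 0.5 h called 2. Counts of the second set at 2 h are left out, as it has a single WT library there. A term for the set gave 5 for D270A against WT at 1 h and 11 at 2 h. With DMSO libraries as the control, chosen after seeing the data, SSAA called 4 and dKO 28, all lower.

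Leaving out each library number in turn kept 276 of 312 counts within 1.5 times. The counts ran from 1 to 2 for LPS in WT cells at 0.5 h, from 0 to 2, 1 to 6 and 4 to 8 for D270A against WT at 0.5, 1 and 2 h, from 1 to 2 for PD at 70 against 10 min, from 6 to 17 and 7 to 13 for RSKi at 0 and 0.5 h, from 11 to 13 for LPS in dKO cells, and from 1 to 5, 0 to 1 and 2 to 6 for the dKO, PD and RSKi differences in response. The libraries behind these moves are named beside each result.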
